A study of Homo sapiens with 14 samples.

Results

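The 10 focal adhesion genes, 10 of the 60707 rows of the expression table, were followed across 14 RNA-seq libraries of the human myeloid leukemia lines PLB-985 and HL-60. They are PXN, VCL, TLN1, ZYX, CTNNA1, FERMT3, ILK, PARVG, PTK2B and PTK2, each found as 1 of the 37466 rows with an NCBI gene ID. The genes were chosen by their known place at focal adhesions, with normalized values of these same libraries already in view. The adjusted p values below therefore set a difference against the spread between replicates and are not independent support for the choice of genes.

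PLB-985 is regarded as a sub-line of HL-60, and here it carried an H2B-mCherry transgene that HL-60 cells lacked, so line and reporter cannot be told apart. To reach a neutrophil-like state, each line was kept for 6 days in 1.3% DMSO. The medium held either 2% Nutridoma-CS with serum lowered to 0.5% FBS (called DMSO+Nutridoma) or 9% FBS (called DMSO). Undifferentiated cells of each line were grown in 9% FBS without DMSO. These 6 groups had 2 libraries each, and PLB-985 cells on day 2 and on day 4 of DMSO+Nutridoma had 1 library each. Nutridoma is a serum substitute, so the supplement and the lower serum came together and cannot be told apart. Values are FPKM, read fragments per kilobase of transcript and per unit of library size, after the authors' scaling of each library, and are called normalized FPKM. Differences are log2 fold changes on the log2(normalized FPKM + 1) scale, which understates the change of low genes, and passing means an adjusted p below 0.05 from limma, by the Benjamini-Hochberg method over 13778 rows. In bulk RNA, a change in the share of one cell type and a change in RNA per cell cannot be told apart.

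Focal adhesions are the sites where integrins, the receptors for extracellular matrix and for ligands on other cells, are tied to actin. Talin and kindlin bind the integrin tail and switch the receptor on, and vinculin, zyxin and the complex of ILK with parvins connect it to actin filaments. Paxillin is the scaffold on which kinases and regulators of small GTPases gather. Neutrophils crawl fast and build small, short-lived adhesions with the leukocyte integrins that contain ITGB2.

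All 7 neutrophil markers examined, among them FPR1 and ITGAM, were higher in DMSO cells than in undifferentiated cells in both lines, and 7 of 7 in PLB-985 and 6 of 7 in HL-60 were higher in DMSO+Nutridoma cells than in undifferentiated cells. All 7 platelet or megakaryocyte markers were under 1 normalized FPKM on average in each group, and PF4 was listed at 0 throughout. Of 5038 rows with a median FPKM of at least 20, 35 were listed at exactly 0 in at least 1 library, so a 0 in this table can be a failed estimate. The tables give no read counts, and depth per library is unknown.

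Paxillin and alpha-catenin set the DMSO+Nutridoma cells apart from the DMSO cells in both lines. PXN (chr12:120210439-120265771, minus strand, GRCh38), which encodes paxillin, had 6.44 and 7.98 normalized FPKM in PLB-985 DMSO+Nutridoma cells, against 0.240 and 0.287 in PLB-985 DMSO cells and 1.12 and 2.09 in undifferentiated PLB-985 cells. In HL-60 cells PXN had 37.5 and 33.7 normalized FPKM with DMSO+Nutridoma, against 0.920 and 1.04 with DMSO and 3.98 and 1.18 undifferentiated. The DMSO+Nutridoma libraries lay above all libraries of the other states in each line, and those of HL-60 were the highest of the 14. The mean of the 2 libraries was 27.4 times that of DMSO cells in PLB-985 and 36.3 times in HL-60. The DMSO means in these ratios, 0.263 in PLB-985 and 0.981 in HL-60, are under 1 normalized FPKM, so the size of the ratios is uncertain.

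On the fitted scale, PXN was higher in DMSO+Nutridoma cells than in DMSO cells by 2.69 (SE 0.36, limma adjusted p = 0.015) in PLB-985 and by 4.21 (SE 0.36, adjusted p = 0.00065) in HL-60. Against undifferentiated cells the differences were 1.67 (adjusted p = 0.0041) in PLB-985 and 3.47 (adjusted p = 1e-04) in HL-60. DMSO alone went the other way: in PLB-985 PXN was lower than in undifferentiated cells, with a fitted difference of -1.02 (SE 0.36, adjusted p = 0.037), and the value in HL-60, -0.74 (adjusted p = 0.11), did not pass. The PLB-985 call of DMSO+Nutridoma against DMSO was lost without any 1 of the 4 libraries compared (adjusted p = 0.099 to 0.17), with the fold change then 2.49 to 2.89. The PLB-985 DMSO call was lost without either DMSO library of PLB-985 or of HL-60, or without undifferentiated PLB-985 replicate 2 (adjusted p = 0.054 to 0.24). In HL-60, the DMSO value passed without undifferentiated replicate 2, at -1.41 (adjusted p = 0.0023). PXN-AS1, which overlaps PXN on the opposite strand, had 0.370 to 0.863 normalized FPKM in the DMSO+Nutridoma libraries of day 6, 0.530 to 1.09 in DMSO libraries and 3.39 to 5.35 in undifferentiated ones, so it did not share the increase of PXN.

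**Figure D1:**
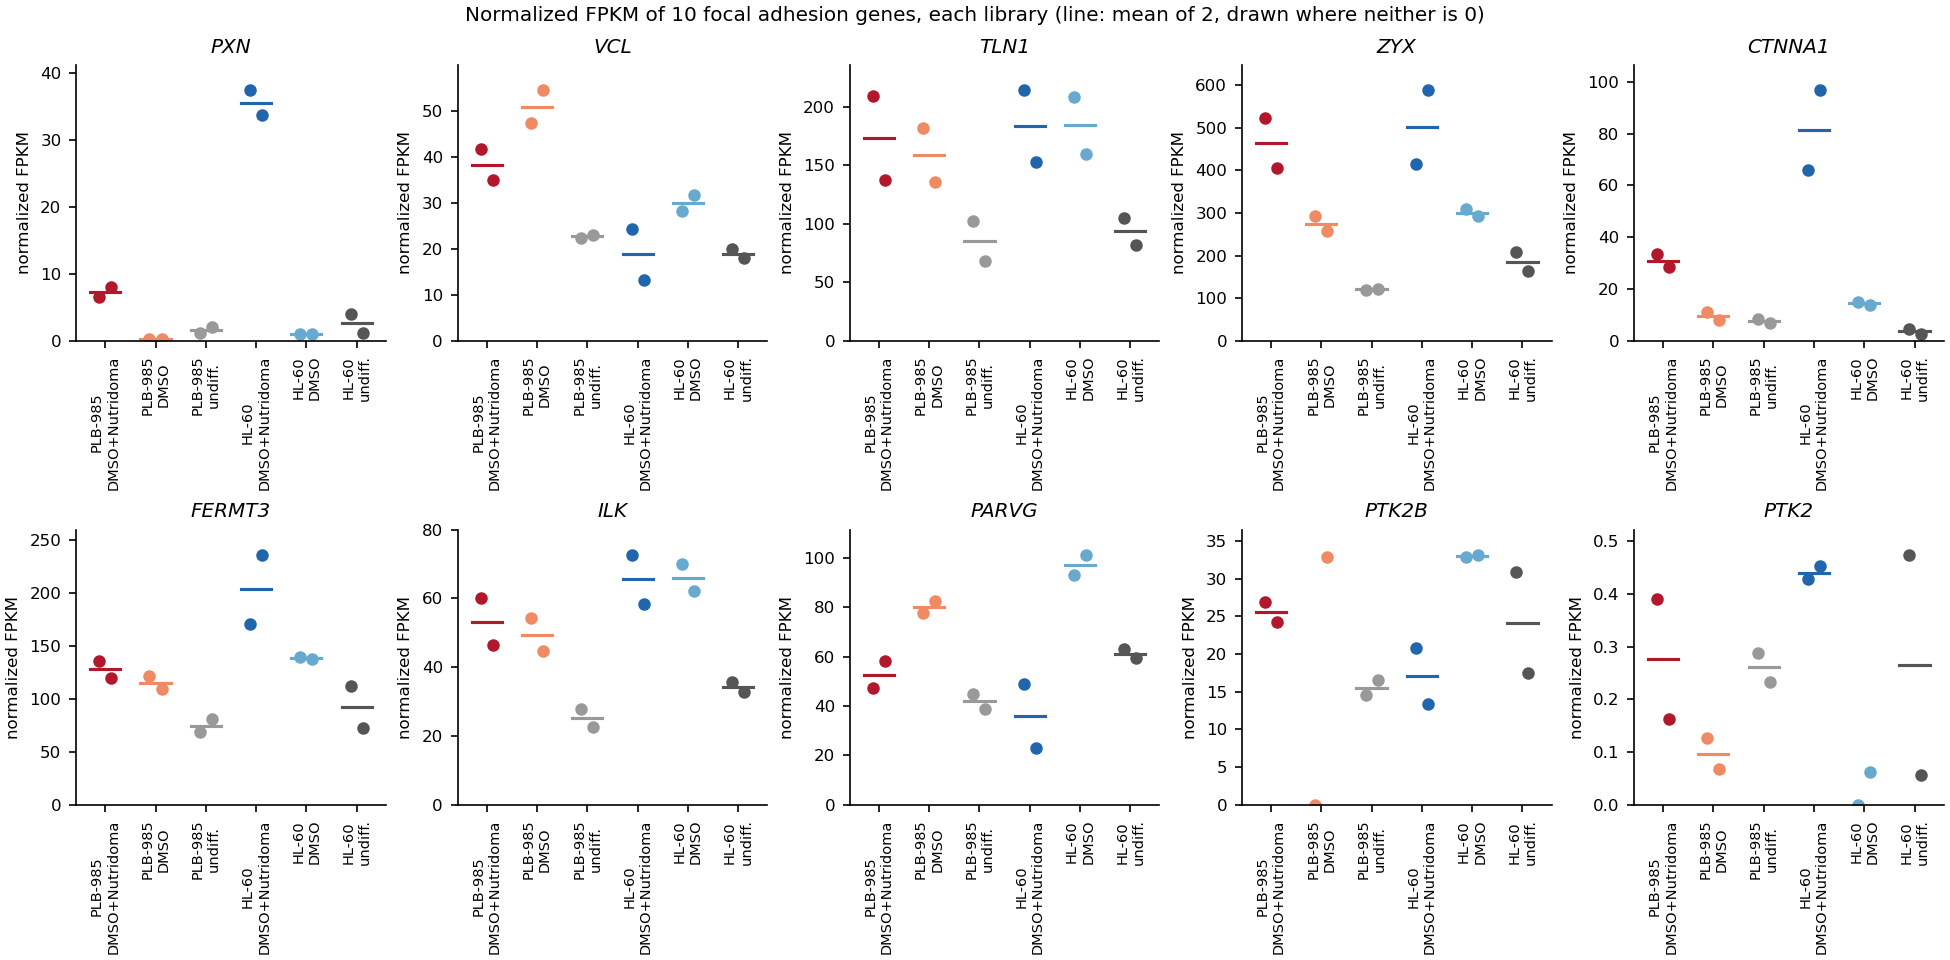
Normalized FPKM (linear axis from 0) of the 10 genes in each of the 12 replicated libraries, as points by line and state, with a bar at the mean of the 2 libraries where neither is at 0. PXN and CTNNA1 are highest in the 2 HL-60 DMSO+Nutridoma libraries, TLN1 and ILK have about the same level in both differentiated states, and PTK2B is listed at 0 in PLB-985 DMSO replicate 1.

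CTNNA1 (chr5:138610967-138935034, plus strand) encodes alpha-catenin, which links cadherin complexes to actin and resembles vinculin. It had 33.6 and 28.4 normalized FPKM in PLB-985 DMSO+Nutridoma cells, against 10.9 and 7.95 in DMSO cells and 8.18 and 6.85 in undifferentiated cells. The HL-60 values were 65.8 and 96.8 with DMSO+Nutridoma, against 15.1 and 13.8 with DMSO and 4.58 and 2.47 undifferentiated. No state overlapped another within HL-60, and in PLB-985 only the DMSO and undifferentiated libraries did.

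CTNNA1 was higher in DMSO+Nutridoma cells than in DMSO cells by 1.63 (SE 0.25, adjusted p = 0.028) in PLB-985 and by 2.39 (SE 0.25, adjusted p = 0.0015) in HL-60. Unlike that of PXN, its HL-60 level was also higher with DMSO alone than in undifferentiated cells, by 1.81 (adjusted p = 0.00044), and the PLB-985 value was 0.28 (adjusted p = 0.36). Against undifferentiated cells, the DMSO+Nutridoma differences were 1.91 (adjusted p = 0.00033) in PLB-985 and 4.20 (adjusted p = 1e-05) in HL-60. The PLB-985 call against DMSO was lost when any 1 of 8 libraries was left out (adjusted p = 0.062 to 0.23), namely any but the undifferentiated and DMSO+Nutridoma libraries of HL-60. The HL-60 call against DMSO was lost when HL-60 libraries were fitted alone (adjusted p = 0.071).

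Monocyte and macrophage genes moved with PXN and CTNNA1. The 8 markers summed to 34 to 35.6 normalized FPKM in PLB-985 DMSO+Nutridoma cells, against 2.63 to 2.93 in DMSO cells and 0.939 to 1.19 in undifferentiated cells. In HL-60 cells the sums were 487 to 601 with DMSO+Nutridoma, against 54.7 to 66.3 with DMSO and 4.06 to 8.53 undifferentiated. The 2 measures parted elsewhere: HL-60 DMSO cells had a marker sum above that of PLB-985 DMSO+Nutridoma cells but a PXN level of about 1 normalized FPKM.

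Of the 6 markers tested, 6 were higher in HL-60 DMSO+Nutridoma cells than in DMSO cells, and 2 of 6 were higher in the same comparison in PLB-985. CD14, a monocyte receptor for bacterial lipopolysaccharide, had 518 and 376 normalized FPKM in HL-60 DMSO+Nutridoma cells, against 44.5 and 55.2 in HL-60 DMSO cells. MRC1, which marks macrophages, was listed at 0 in all PLB-985 libraries and in the undifferentiated and DMSO libraries of HL-60. It was above 0 only in HL-60 DMSO+Nutridoma cells. The part of monocytes or macrophages in the PXN and CTNNA1 results was not tested.

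**Figure D2:**
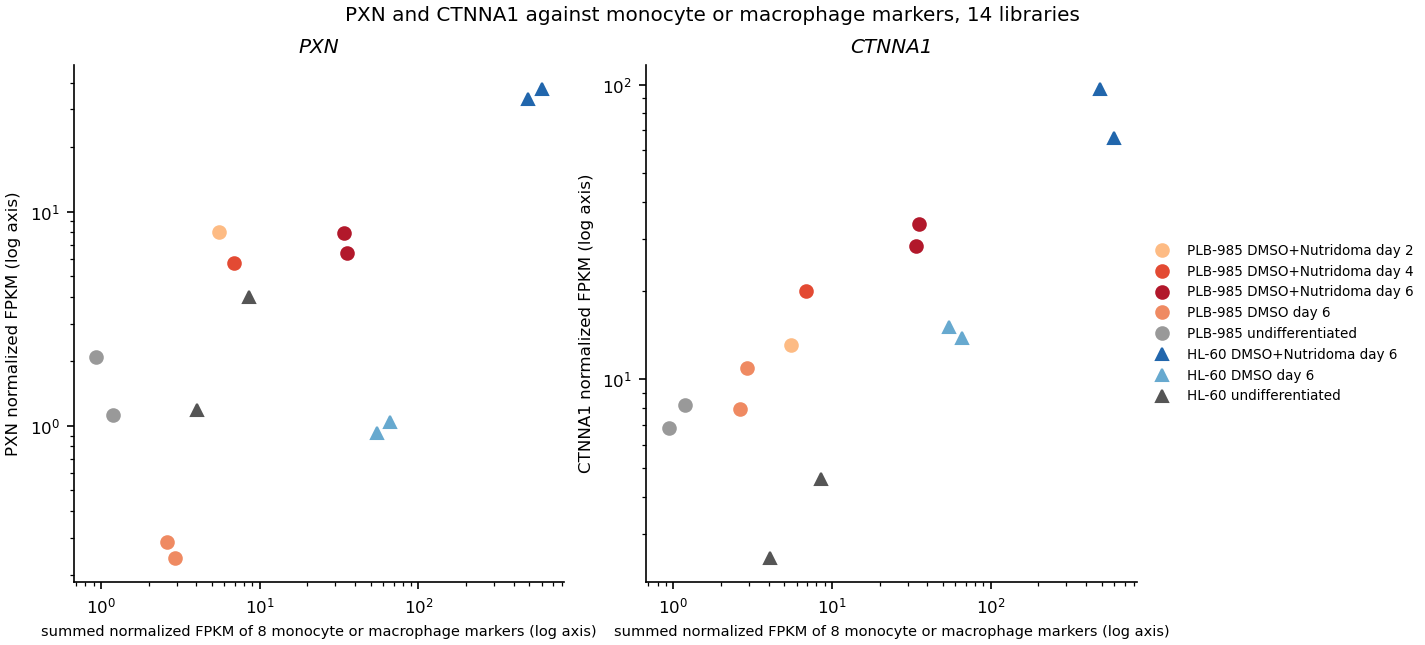
Normalized FPKM of PXN (left) and CTNNA1 (right) against the summed normalized FPKM of 8 monocyte or macrophage markers, both on log axes, in 14 libraries (circles, PLB-985; triangles, HL-60). The 2 HL-60 DMSO+Nutridoma libraries are at the top right in both panels, and the 2 HL-60 DMSO libraries have sums of 54.7 and 66.3 with PXN at 0.920 and 1.04.

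PXN and CTNNA1 are the members that passed as higher with DMSO+Nutridoma than with DMSO in both lines. ZYX was also higher in both, by 0.74 in PLB-985 and 0.71 in HL-60, but its PLB-985 value did not pass (limma adjusted p = 0.15). The promoter windows of PXN and CTNNA1 were read for letters they share. Windows of 300 bases, 250 before a transcript start and 50 after it, were taken from RefSeq on GRCh38.p14 and matched 8 of the 10 genes (13 windows; not PTK2B and PTK2). The motifs were searched on both strands and were chosen after the expression values were seen. The palindrome TTCNNNGAA, the letters bound by STAT factors, was in 2 of the 13 windows, against 7.66% of 35116 windows of the genome. Of these, 1 was a PXN window and 1 a CTNNA1 window. GAGGAA, the core bound by PU.1 and other ETS factors, was in 5 of the 13 windows, against 27.9% of all windows. These were windows of PXN, CTNNA1 and FERMT3, the only members with more than 1 window, so a match is more likely for these genes. The counts were not tested against the shares of all windows. The CArG box, bound by SRF, was in none of the 13, against 1.29% of all windows. A match describes letters only, and no binding was measured here. The windows of PXN (chr12:120250114-120250413, minus strand) and CTNNA1 (chr5:138875150-138875449, plus strand) that hold TTCNNNGAA are shown 5′ to 3′ with the match in capitals. Both are at internal starts of the gene, and the match begins at position -76 from the start in PXN and at -86 in CTNNA1.
PXN: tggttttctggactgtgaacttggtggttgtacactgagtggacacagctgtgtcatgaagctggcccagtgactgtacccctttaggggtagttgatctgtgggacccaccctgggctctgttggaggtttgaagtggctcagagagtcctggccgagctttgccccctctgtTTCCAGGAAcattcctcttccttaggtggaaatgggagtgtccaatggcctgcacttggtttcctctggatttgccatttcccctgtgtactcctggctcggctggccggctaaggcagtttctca
CTNNA1: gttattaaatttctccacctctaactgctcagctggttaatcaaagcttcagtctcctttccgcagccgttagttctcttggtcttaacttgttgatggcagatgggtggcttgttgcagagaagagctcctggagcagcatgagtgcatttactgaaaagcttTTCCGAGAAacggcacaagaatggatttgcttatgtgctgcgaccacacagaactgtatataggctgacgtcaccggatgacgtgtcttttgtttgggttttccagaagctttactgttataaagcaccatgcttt

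Talin and the integrin-linked kinase rose together and by nearly equal amounts in both differentiated states. TLN1 (chr9:35696948-35732195), which encodes talin-1, the integrin activator, had 209.5 and 138 normalized FPKM in PLB-985 DMSO+Nutridoma cells and 182 and 136 in DMSO cells, against 102.0 and 67.9 in undifferentiated cells. The HL-60 values were 214 and 153 with DMSO+Nutridoma and 209 and 160.1 with DMSO, against 105 and 81.9 undifferentiated. Each differentiated library lay above each undifferentiated one of its line. The 4 log2 fold changes against undifferentiated cells were 0.91 to 1.02 (SE 0.10 each), with adjusted p values of 8.9e-05 to 0.00014.

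ILK (chr11:6603708-6610874), a pseudokinase that holds parvin and PINCH at integrin tails, had 60.0 and 46.6 normalized FPKM in PLB-985 DMSO+Nutridoma cells and 54.2 and 44.7 in DMSO cells, against 27.8 and 22.6 in undifferentiated cells. In HL-60 it had 72.8 and 58.4 with DMSO+Nutridoma and 69.95 and 62.1 with DMSO, against 35.6 and 32.7 undifferentiated. Its 4 fold changes were 0.92 to 1.05 (SE 0.10 each, adjusted p = 7.1e-05 to 0.00013). Replicate 1 was above replicate 2 in 6 of 6 groups for TLN1, by 1.28 to 1.52 times, and for ILK, by 1.09 to 1.29 times, a difference between the replicate sets that the fit takes out. Between DMSO+Nutridoma and DMSO cells neither gene passed, with values of -0.02 to 0.11. These 8 calls against undifferentiated cells were kept when any library was left out. ILK overlaps TAF10 on the opposite strand over 4581 bases. TAF10 had 180 to 216 normalized FPKM in the DMSO+Nutridoma libraries of day 6. It had 148 to 169 in DMSO libraries and 113 to 122 in undifferentiated ones, so it was higher in the same states as ILK. The part of TAF10 in the ILK values was not tested. Whether reads were counted by strand is not given in the sources used here, so reads of both genes may not have been separated.

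FERMT3 (chr11:64205926-64223896) encodes kindlin-3, the kindlin of blood cells and the partner of talin in integrin activation. It had 136 and 119.9 normalized FPKM in PLB-985 DMSO+Nutridoma cells and 121 and 109 in DMSO cells, against 68.9 and 80.6 in undifferentiated cells. The HL-60 values were 171 and 236 with DMSO+Nutridoma and 139 and 137 with DMSO, against 112 and 72.4 undifferentiated. Each differentiated library lay above each undifferentiated one of its line.

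FERMT3 rose against undifferentiated cells by 0.77 (adjusted p = 0.018) with DMSO+Nutridoma and by 0.62 (adjusted p = 0.043) with DMSO in PLB-985, and by 1.15 (adjusted p = 0.0027) with DMSO+Nutridoma and 0.61 (adjusted p = 0.044) with DMSO in HL-60. The DMSO calls were lost without any 1 of 8 libraries in PLB-985 (adjusted p = 0.059 to 0.24; all but the undifferentiated and DMSO+Nutridoma libraries of HL-60) and without any 1 of 9 in HL-60 (adjusted p = 0.053 to 0.31; all but undifferentiated replicate 1 and both DMSO+Nutridoma libraries of HL-60). The PLB-985 DMSO+Nutridoma call was lost without undifferentiated replicate 1 or either DMSO+Nutridoma library (adjusted p = 0.055 to 0.13). Without HL-60 DMSO+Nutridoma replicate 1, FERMT3 passed against HL-60 DMSO cells, at 0.84 (adjusted p = 0.042), against 0.54 (adjusted p = 0.14) with all libraries.

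PARVG and PTK2B had a different pattern, shared by VCL: both DMSO+Nutridoma libraries of HL-60 lay below both DMSO libraries of HL-60. Of these genes, only PARVG passed in that comparison with all libraries and values kept. PARVG (chr22:44172956-44219533) encodes gamma-parvin, the parvin of blood cells that joins ILK to actin. It had 48.8 and 22.8 normalized FPKM in HL-60 DMSO+Nutridoma cells, against 93.2 and 101.5 in DMSO cells and 63.0 and 59.7 in undifferentiated cells. In PLB-985 it had 47.2 and 58.1 with DMSO+Nutridoma, against 77.9 and 82.7 with DMSO and 44.9 and 39.0 undifferentiated. The DMSO libraries were the highest of each line.

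PARVG fell by 1.51 (SE 0.28, adjusted p = 0.014) in HL-60 DMSO+Nutridoma cells against DMSO cells and by 0.85 (adjusted p = 0.031) against undifferentiated cells. The value in PLB-985 DMSO+Nutridoma cells against DMSO cells was -0.61 (adjusted p = 0.42). DMSO alone raised PARVG against undifferentiated cells by 0.92 (adjusted p = 0.022) in PLB-985, and the HL-60 value was 0.66 (adjusted p = 0.077). That HL-60 value passed without either HL-60 DMSO+Nutridoma library (adjusted p = 0.0038). HL-60 DMSO+Nutridoma replicate 2 was the lowest library for PARVG, and without it the value against undifferentiated cells was -0.30 (adjusted p = 0.16). That call was also lost without either undifferentiated HL-60 library (adjusted p = 0.089 to 0.12), the one against DMSO cells without either HL-60 DMSO library (adjusted p = 0.056 to 0.13), and the PLB-985 DMSO call without any of the 4 libraries compared (adjusted p = 0.053 to 0.13).

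PTK2B (chr8:27311482-27459391) encodes PYK2, a relative of focal adhesion kinase that is abundant in blood cells, and it was listed at 0 in PLB-985 DMSO replicate 1 and at 32.8 in replicate 2. The other 12 libraries held 13.3 to 33.2 normalized FPKM. The PLB-985 DMSO+Nutridoma libraries had 27.0 and 24.2, against 14.6 and 16.5 in undifferentiated PLB-985 cells. The HL-60 DMSO+Nutridoma libraries had 20.9 and 13.3, against 32.9 and 33.2 with DMSO and 30.8 and 17.5 undifferentiated.

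The single 0 drove the fitted change of PTK2B. With it, the PLB-985 DMSO value against undifferentiated cells was -1.50 (SE 1.25, adjusted p = 0.33), and with the 0 set to missing it was 1.17 (SE 0.31, adjusted p = 0.011), a change of sign. The 0 also widened the error of PTK2B in every comparison, since the groups share 1 estimate of spread. With it set to missing, PTK2B passed in PLB-985 DMSO+Nutridoma against undifferentiated cells, at 0.69 (SE 0.24, adjusted p = 0.035), and in HL-60 DMSO+Nutridoma against DMSO cells, at -0.95 (SE 0.24, adjusted p = 0.033). Leaving out PLB-985 DMSO replicate 1 gave 1.17 (adjusted p = 0.017) for DMSO, and leaving out replicate 2 instead, which keeps only the 0, gave -4.18.

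PTK2 (chr8:140657900-141002216) encodes focal adhesion kinase itself, the main kinase bound to paxillin in adherent cells. It stayed at or under 0.474 normalized FPKM in all 14 libraries, so it passed no filter and was in no test. Its values were 0.390 and 0.163 in PLB-985 DMSO+Nutridoma cells, 0.127 and 0.0678 in DMSO cells, and 0.288 and 0.233 in undifferentiated cells. In HL-60 it had 0.427 and 0.452 with DMSO+Nutridoma, 0 and 0.0621 with DMSO, and 0.474 and 0.0571 undifferentiated. PTK2B, at 13.3 to 33.2 outside the single 0, was far above PTK2 on this length-scaled measure.

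VCL (chr10:73995193-74121363) encodes vinculin, which binds talin and actin and strengthens adhesions under load. It had 41.6 and 34.8 normalized FPKM in PLB-985 DMSO+Nutridoma cells and 47.3 and 54.4 in DMSO cells, against 22.4 and 22.9 in undifferentiated cells. In HL-60 the values were 24.3 and 13.2 with DMSO+Nutridoma and 28.3 and 31.7 with DMSO, against 19.99 and 17.9 undifferentiated. The 2 HL-60 DMSO+Nutridoma libraries straddled the undifferentiated ones.

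VCL rose with DMSO against undifferentiated cells by 1.13 (adjusted p = 0.0034) in PLB-985 and by 0.64 (adjusted p = 0.042) in HL-60, and with DMSO+Nutridoma by 0.73 (adjusted p = 0.026) in PLB-985. The HL-60 value for DMSO+Nutridoma was -0.07 (adjusted p = 0.81), and without DMSO+Nutridoma replicate 1 of HL-60 it was -0.49 and passed (adjusted p = 0.047). The HL-60 DMSO call was lost without any 1 of 8 libraries (adjusted p = 0.056 to 0.24; all but the PLB-985 DMSO and HL-60 DMSO+Nutridoma libraries), and the PLB-985 DMSO+Nutridoma call without any of the 4 libraries compared (adjusted p = 0.06 to 0.14). Leaving out HL-60 DMSO+Nutridoma replicate 1, which keeps the lower library, also put VCL lower than in HL-60 DMSO cells by a log2 fold change of -1.12 (adjusted p = 0.0053), against -0.71 (adjusted p = 0.074) with both. AP3M1, which overlaps VCL on the opposite strand, had 17.7 to 32.8 normalized FPKM.

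ZYX (chr7:143381295-143391111) encodes zyxin, which brings VASP to actin and was the highest of the 10 genes, with a median of 302 normalized FPKM over the 14 libraries. It had 524 and 405 in PLB-985 DMSO+Nutridoma cells and 293 and 257 in DMSO cells, against 118 and 122 in undifferentiated cells. In HL-60 it had 415 and 589 with DMSO+Nutridoma and 309.8 and 292 with DMSO, against 209 and 163 undifferentiated. The 3 states did not overlap in either line, with DMSO+Nutridoma highest.

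Against undifferentiated cells ZYX rose by 1.93 (adjusted p = 0.00011) with DMSO+Nutridoma and by 1.18 (adjusted p = 0.0013) with DMSO in PLB-985, and by 1.42 (adjusted p = 0.00054) with DMSO+Nutridoma and 0.70 (adjusted p = 0.017) with DMSO in HL-60. Against DMSO cells the DMSO+Nutridoma values were 0.71 (adjusted p = 0.048) in HL-60 and 0.74 (adjusted p = 0.15) in PLB-985. The HL-60 call was lost without any 1 of 9 libraries (adjusted p = 0.065 to 0.25; all but the undifferentiated HL-60 libraries and HL-60 DMSO+Nutridoma replicate 1), and under 6 other settings. The PLB-985 value passed without either HL-60 DMSO+Nutridoma library (adjusted p = 0.037). The HL-60 DMSO call was lost without either HL-60 DMSO library or undifferentiated HL-60 replicate 2 (adjusted p = 0.073 to 0.11).

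**Figure D3:**
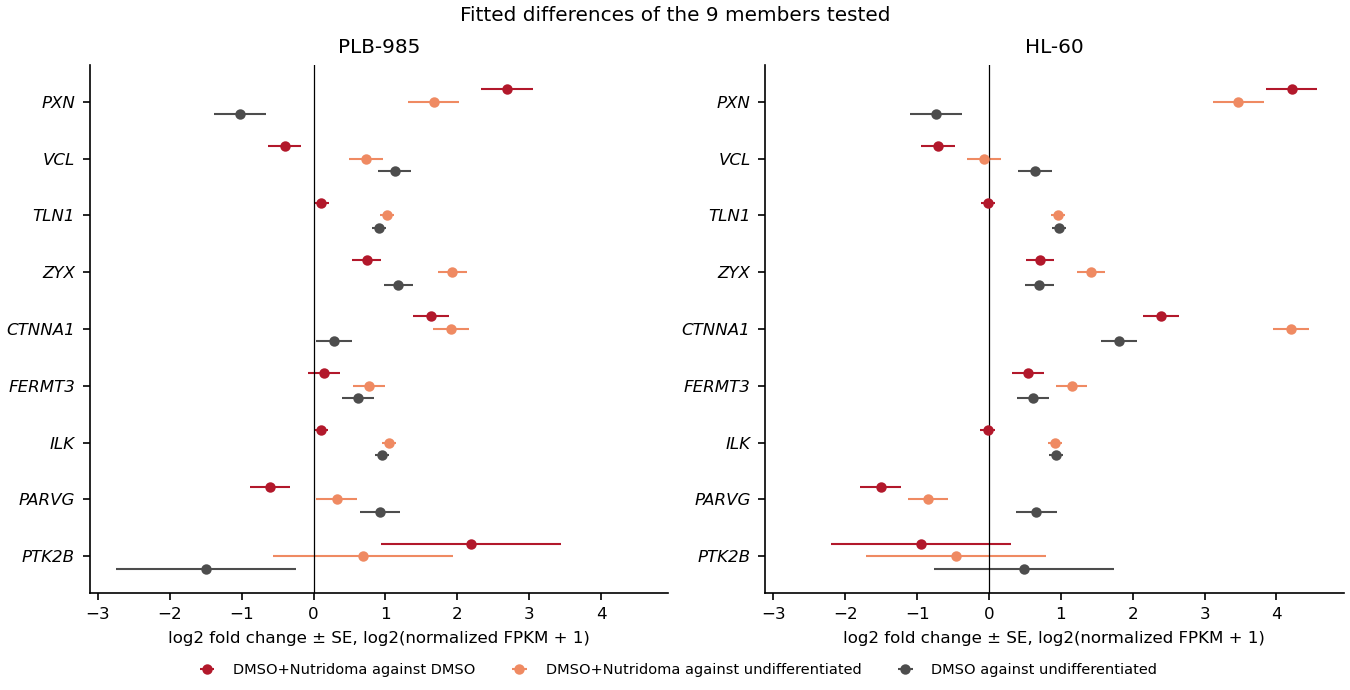
Log2 fold changes (points) with their SE (bars) on the log2(normalized FPKM + 1) scale for the 9 genes tested, in PLB-985 (left) and HL-60 (right). PXN with DMSO+Nutridoma reaches 4.21 against DMSO in HL-60, TLN1 and ILK lie near 1 against undifferentiated cells in both lines, and PTK2B has the widest bars, SE 1.25.

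Over the 9 genes tested, counts are read beside the share of all 13778 rows that passed and support nothing about the choice of genes. In PLB-985 DMSO against undifferentiated cells, 6 rose and 1 fell, with 24.6% of all rows higher and 35.8% lower. In PLB-985 DMSO+Nutridoma against undifferentiated cells, 7 rose and 0 fell (limma, 0 lower also at an unadjusted p under 0.05), with 24% of rows higher and 35.8% lower. In HL-60 DMSO against undifferentiated cells, 6 rose and 0 fell (0 lower at an unadjusted p under 0.05), with 26% of rows higher and 34.7% lower. In HL-60 DMSO+Nutridoma against undifferentiated cells, 6 rose and 1 fell, with 25.5% of rows higher and 33.6% lower. For DMSO+Nutridoma against DMSO, 2 members rose in PLB-985, where 1.05% of rows passed in either direction, and 3 rose and 1 fell in HL-60, where 16.5% passed. The median over the members against undifferentiated cells was 0.66 to 1.02, and that of all rows was -0.16 to -0.11. With median-of-ratios scaling the medians of all rows were -0.04 to -0.02, so the level that the members are read beside moves with the scaling. The medians of the members under that scaling are not given here. Without the authors' scaling, 43.4% of the rows that passed in HL-60 DMSO+Nutridoma against DMSO were higher, against 59.9% with it, and 63.5% of those that passed between the lines in DMSO+Nutridoma cells were higher in PLB-985, against 46.7% with it.

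Differences of the members between the lines are read beside the share of all rows that passed. In undifferentiated cells, 14.1% of rows passed in either direction. CTNNA1 was higher in PLB-985 than in HL-60, by 0.95 (adjusted p = 0.042), and ILK lower, by a log2 fold change of -0.43 (adjusted p = 0.025). In DMSO cells, where 10.4% of rows passed, ILK was lower in PLB-985, at -0.41 (adjusted p = 0.035), and no other member passed. In DMSO+Nutridoma cells, where 23.9% passed, PXN was lower in PLB-985, at -2.16 (adjusted p = 0.0046), as was CTNNA1, at -1.34 (adjusted p = 0.0073), and VCL was higher, at 1.05 (adjusted p = 0.015).

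Of these line calls, that of PXN was kept when any library was left out. CTNNA1 in DMSO+Nutridoma cells was lost without PLB-985 DMSO+Nutridoma replicate 2 (adjusted p = 0.056). VCL was lost without either PLB-985 DMSO+Nutridoma library or HL-60 DMSO+Nutridoma replicate 2 (adjusted p = 0.054 to 0.098). In undifferentiated cells, CTNNA1 was lost without any 1 of 9 libraries (adjusted p = 0.065 to 0.19) and ILK without 5 (adjusted p = 0.051 to 0.15), and ILK in DMSO cells without 8 (adjusted p = 0.063 to 0.25). Leaving out 1 library also brought other members past the threshold. They were PXN, ZYX and PARVG in undifferentiated cells, VCL, CTNNA1 and PTK2B in DMSO cells, and FERMT3, ILK and PARVG in DMSO+Nutridoma cells. PTK2B passed there without PLB-985 DMSO replicate 2, which keeps only its 0. With the 0 set to missing, the PTK2B value for PLB-985 against HL-60 in DMSO cells was 0.13.

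The difference between the lines in response was tested as such. No member passed for the response to DMSO, where 1.31% of rows did, or for the DMSO+Nutridoma effect over DMSO, where 0.515% did. At an unadjusted p under 0.05, 1 of 9 members passed in each: CTNNA1 for DMSO, at -1.52 (SE 0.35, adjusted p = 0.11), and PXN for DMSO+Nutridoma over DMSO, at -1.51 (SE 0.50, adjusted p = 0.29), both as PLB-985 minus HL-60. The CTNNA1 value for DMSO passed without either HL-60 DMSO+Nutridoma library (adjusted p = 0.021 to 0.022). For DMSO+Nutridoma over DMSO, leaving out HL-60 DMSO+Nutridoma replicate 1 gave 1058 rows that passed in place of 71, among them CTNNA1, at -1.21 (adjusted p = 0.033), and PARVG, at 1.46 (adjusted p = 0.012). PTK2B passed in both tests without PLB-985 DMSO replicate 2 (adjusted p = 0.012 and 0.0047), which keeps only its 0.

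Along the DMSO+Nutridoma protocol in PLB-985, days 2 and 4 had 1 library each, so the steps between days have no replicate check. PXN had 1.12 and 2.09 normalized FPKM in undifferentiated cells, 8.01 on day 2, 5.73 on day 4 and 6.44 and 7.98 on day 6, so that its day-2 value was close to those of day 6. CTNNA1 had a higher value at each later day, with 8.18 and 6.85 undifferentiated, 13.1 on day 2, 19.9 on day 4 and 33.6 and 28.4 on day 6. VCL was highest on day 4, at 61.3, after 45.7 on day 2, and had 41.6 and 34.8 on day 6. PARVG had 62.0 on day 2, 42.1 on day 4 and 47.2 and 58.1 on day 6. ZYX, TLN1, FERMT3 and ILK had 340.4, 144, 146 and 50.4 on day 2 and 535, 201, 164 and 65.3 on day 4. The labels give these 2 libraries no replicate number. The total FPKM was 790253 on day 2, within the 739094 to 873607 of the replicate 2 libraries, and 997226 on day 4, within the 943987 to 1082042 of the replicate 1 libraries. The day-4 value was 1.40 times the day-2 value for TLN1 and 1.29 times for ILK, no more than the ratios of replicate 1 to replicate 2 in the groups of 2 libraries. The same held for 7 of the 9 members tested, whose ratios of day 4 to day 2 were within the range of their replicate ratios, with ZYX (1.57) and PARVG (0.68) outside it. Day and replicate set therefore cannot be told apart in these steps.

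**Figure D4:**
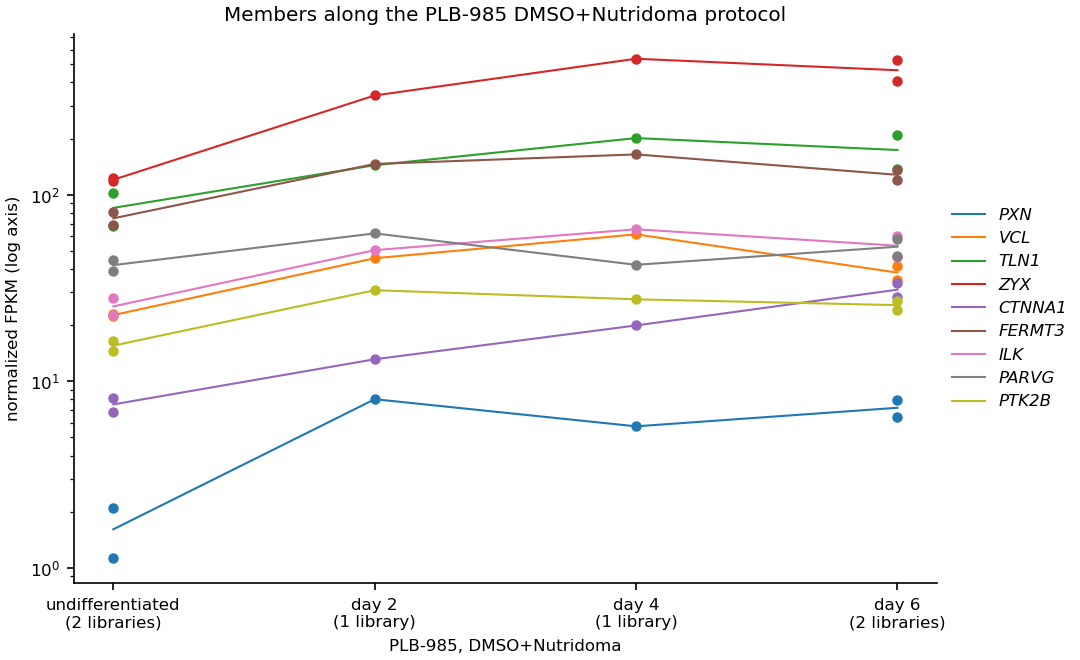
Normalized FPKM (log axis) of 9 members in PLB-985 cells, undifferentiated and on days 2, 4 and 6 of DMSO+Nutridoma; points are libraries and lines join their means. PXN is at 8.01 on day 2 and CTNNA1 is highest on day 6, at 33.6 and 28.4.

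Across the 14 libraries the members fell into patterns, given as correlations of log2(normalized FPKM + 1) without a test, since the libraries share groups and replicate sets. TLN1 and ILK had the highest Pearson r, 0.95, followed by ZYX and FERMT3 at 0.91. PXN had 0.79 with CTNNA1, 0.67 with FERMT3, 0.61 with ZYX, 0.30 with TLN1 and -0.67 with PARVG. CTNNA1 had 0.83 with FERMT3 and 0.80 with ZYX. By rank, PXN had a Spearman correlation of 0.58 with CTNNA1 and 0.60 with ZYX. PARVG and PTK2B had 0.79 over the 13 libraries in which PTK2B was above 0.

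**Figure D5:**
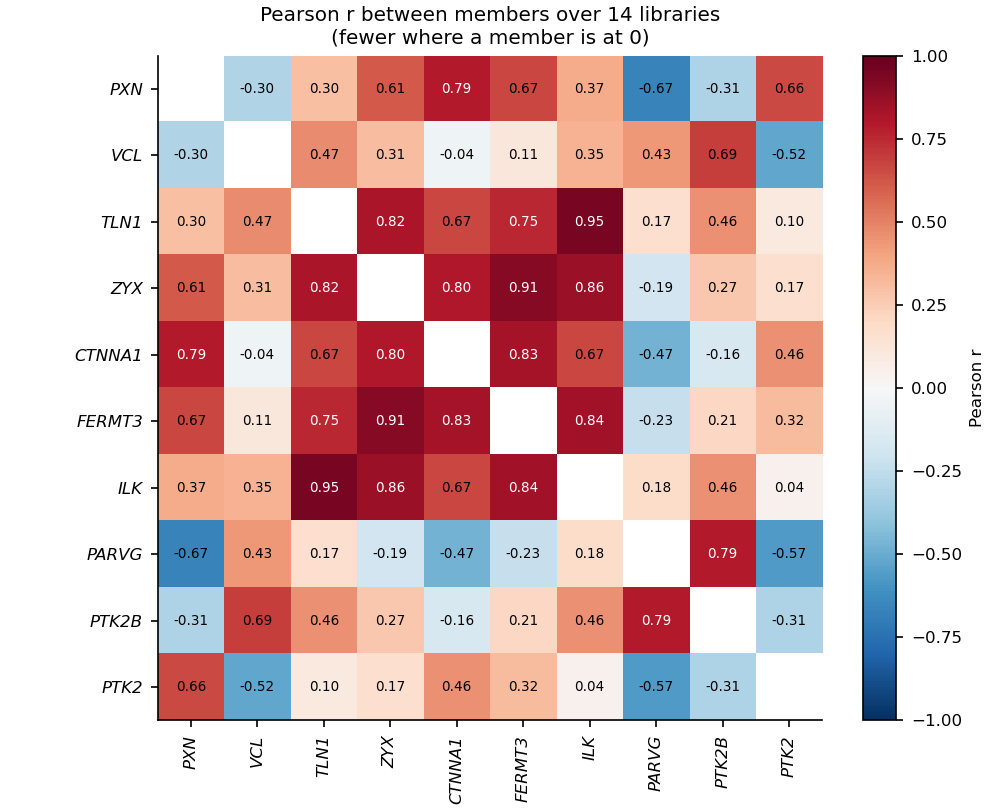
Pearson r of log2(normalized FPKM + 1) between each pair of members over 14 libraries, or 12 or 13 where a member is listed at 0. TLN1 with ILK has the highest value, 0.95, and PXN with PARVG the lowest, -0.67.

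Other genes of the same machinery were counted with DMSO against undifferentiated cells, where 24.6% of all rows were higher and 35.8% lower in PLB-985 and 26% higher and 34.7% lower in HL-60. Of 17 paxillin relatives and partners, 15 were tested, and 9 rose and 1 fell in PLB-985 (median log2 fold change 0.52, with -0.15 over all rows) and 7 rose and 3 fell in HL-60 (median 0.45, with -0.11 over all rows). LPXN, the leukocyte relative of paxillin, rose with DMSO by 1.02 in PLB-985 and by 1.14 in HL-60, while PXN itself had -1.02 in PLB-985 and -0.74 in HL-60. PAK1, a kinase brought to adhesions by the partners of paxillin, rose with DMSO by 2.62 in PLB-985 and by 2.70 in HL-60. CASS4 had 13.7 and 83.8 normalized FPKM in the 2 HL-60 DMSO+Nutridoma libraries, so they differ also outside the members.

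Of 21 zyxin relatives and actin linkers, 15 were tested, and with DMSO 4 rose and 3 fell in PLB-985 (median -0.24) and 5 rose and 3 fell in HL-60 (median 0.08). TRIP6, a zyxin relative, fell by 2.4 in PLB-985 and by 2.82 in HL-60 and VASP, the actin elongation factor that zyxin binds, rose by 1.93 in PLB-985 and by 1.57 in HL-60, each on the log2 scale. PARVB, the parvin of broader distribution, fell with DMSO by 1.40 in PLB-985 and by 1.06 in HL-60, while PARVG had 0.92 in PLB-985 and 0.66 in HL-60. Among 14 integrin subunits, 11 were tested, and with DMSO 5 rose and 2 fell in PLB-985 and 7 rose and 1 fell in HL-60 (median 1.13 in each line). ITGA4, the alpha chain of VLA-4, fell by 2.64 in PLB-985 and by 1.09 in HL-60. ITGAM, the alpha chain of the integrin Mac-1, rose by 5.11 in PLB-985 and by 5.46 in HL-60. Its beta chain ITGB2 rose by 3.08 in PLB-985 and by 2.2 in HL-60, and both exceeded any of the 9 members tested.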

How the data were processed

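The authors sequenced polyA RNA as single-end reads, aligned it with STAR 2.4 to GRCh38.p5 and estimated 1 FPKM per gene and library with Cufflinks 2.2.1, and the FPKM were deposited unscaled. The authors also deposited log10 normalized values, in which each FPKM was multiplied by a library factor (0.5964 to 0.8043, from uniformly expressed genes) and 0.0001 was added, so a 0 reads as -4. Neither table has read counts, so no counting interval or detection limit is given.

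The 13778 rows that reached 1 normalized FPKM in 2 or more of the 12 libraries with a replicate were tested with limma 3.58.1 in R 4.3.3 on log2(normalized FPKM + 1), with a term for each of 6 groups and a block for the replicate number, 5 residual degrees of freedom, a variance trend, two-sided tests and Benjamini-Hochberg adjustment within each of 11 comparisons. The study repeated the experiment on 2 separate days but does not tie the replicate numbers to them, and deviations of same-numbered libraries correlated at 0.65 to 0.85 over 15 pairs of groups. P values measure the spread between these cultures only. The code was tested on simulated data. Days 2 and 4 entered no test. Python 3.11.15, pandas 2.3.3 and matplotlib 3.10.9 were used for tables and figures, and gene positions are from GENCODE 44 on GRCh38.

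The members and gene lists were chosen with earlier results of these data known. All members were named. From each list, up to 4 genes were eligible to be named, those with the largest change past the threshold in the same direction in both lines with DMSO, and for likeness to PXN the 5 rows of highest Spearman correlation. Some items that these rules cover are not reported here. CD14 and MRC1 are named as markers and CASS4 for its replicate values. Alternatives were no block, other scalings, constants and filters, no variance trend, 1 line alone, values of 0 set to missing and each library left out.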

Additional observations from a re-analysis of the deposited data

How the results depend on the processing

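The number of members that passed moved by over 1.5 times under these settings. With no filter it was 4 in PLB-985 DMSO against undifferentiated cells (7 with all settings as in the report), 0 in PLB-985 DMSO+Nutridoma against DMSO (2), 3 in HL-60 DMSO against undifferentiated cells (6) and 1 between the lines undifferentiated (2). With no replicate block it was 1 in PLB-985 DMSO+Nutridoma against DMSO, 0 between the lines undifferentiated and 0 between the lines in DMSO cells (1). FPKM without the authors' scaling gave 1 between the lines undifferentiated and 0 in DMSO cells, median-of-ratios scaling the same counts, and no variance trend 0 in DMSO cells. With HL-60 libraries alone it was 3 for DMSO against undifferentiated cells and 1 for DMSO+Nutridoma against DMSO (4). The causes were not tested.

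With 1 library left out, the counts were 4 to 7 for PLB-985 DMSO and 5 to 8 for PLB-985 DMSO+Nutridoma against undifferentiated cells, 0 to 3 for PLB-985 DMSO+Nutridoma against DMSO, 3 to 7, 6 to 8 and 2 to 6 for the same comparisons in HL-60, 0 to 4, 0 to 3 and 1 to 5 between the lines undifferentiated, with DMSO and with DMSO+Nutridoma, and 0 to 1 and 0 to 2 for the differences between the lines in the DMSO response and the DMSO+Nutridoma effect. A group left with 1 library is assumed to vary like the others. PTK2B in PLB-985 DMSO against undifferentiated cells changed sign, at 1.17 with its 0 set to missing and at 1.17 without PLB-985 DMSO replicate 1, and was -4.18 without replicate 2. Over all rows, no replicate block gave 839 calls in place of 2269 for HL-60 DMSO+Nutridoma against DMSO and 70 in place of 145 in PLB-985. HL-60 libraries alone gave 101 calls and PLB-985 libraries alone 90, and with 1 library left out the calls were 274 (without HL-60 DMSO replicate 2) to 3179 (without HL-60 DMSO+Nutridoma replicate 1) in HL-60 and 29 (without PLB-985 DMSO replicate 1) to 334 (without HL-60 DMSO+Nutridoma replicate 1) in PLB-985, so the 16.5% and 1.05% of rows that passed there move with these choices. Depth is unknown, and 2 libraries per group limit every comparison.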

Other observations

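Among the 5 rows whose levels ranked most like those of PXN over the 14 libraries were TNFAIP8L3 (Spearman correlation 0.95), PVRL2 (0.93), GLCE (0.93) and ECM1 (0.91). They were picked for the highest values over the tested rows and are given without a test. TNFAIP8L3 and ECM1 were under 1 normalized FPKM in every DMSO and undifferentiated library, so ranks of low values enter their correlations. In PLB-985 DMSO replicate 1 they had 0.0531 and 0.18. PVRL2, which encodes the cell adhesion protein nectin-2, had 16.9 and 25.7 normalized FPKM in HL-60 DMSO+Nutridoma cells, against 2.97 and 3.28 in HL-60 DMSO cells. In PLB-985 it had 7.40 and 8.23 with DMSO+Nutridoma, against 4.23 and 3.21 with DMSO. The monocyte markers ranked less like PXN, with a Spearman correlation of 0.56 for CD14 and 0.14 for CSF1R.

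Other catenins were compared in the same way. CTNNB1, which encodes beta-catenin, was higher in DMSO+Nutridoma cells than in DMSO cells by 0.45 (limma adjusted p = 0.044) in HL-60, with 0.10 (adjusted p = 0.82) in PLB-985. CTNNAL1, a relative of alpha-catenin, had 0.17 (adjusted p = 0.59) in HL-60 and 0.21 (adjusted p = 0.73) in PLB-985. CTNND1, which encodes p120-catenin, had -0.27 (adjusted p = 0.48) in HL-60 and -0.45 (adjusted p = 0.5) in PLB-985. Against undifferentiated cells with DMSO, CTNNAL1 fell by 2.38 in HL-60 and by 2.78 in PLB-985 on the log2 scale.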
